A study of Mus musculus with 2 samples.

Results

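The abundant short reads of mouse testis small RNA were the 5839 distinct sequences of 18 to 20 nt with at least 100 reads over both deposited tables together. They were selected on that sum alone, out of 12016007 distinct sequences of 18 to 32 nt, of which 729602 were 18 to 20 nt long. Of the members, 1668 were 18 nt, 2135 were 19 nt and 2036 were 20 nt long. They held 76.4% and 78.3% of all reads of 18 to 20 nt in the 2 tables described next.

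The study sequenced small RNA of testes at 23 dpp from Stambp-ps1+/- and Stambp-ps1-/- mice, with the genetic background C57BL/6 for both, to profile piRNAs in mutants of the pseudogene Stambp-ps1. Both tables are listed under the Stambp-ps1-/- sample, although one carries the word KO in its name and the other the word het. They are called the KO-named table and the het-named table here, with no genotype given to either, and each pair of values below is in that order. The tables held 54384974 and 62773871 reads, each from 1 library, so no replicate error could be given, no test was possible and the intervals below cover counting error only. The labels do not say how many animals a library came from.

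Small RNA of testis holds several populations. The miRNAs are cut by Dicer from hairpins and loaded into Argonaute proteins, where the seed (bases 2 to 8) selects targets, and the ends of the mature strand can vary by a few bases. The piRNAs are longer, bind PIWI proteins and mostly begin with U. Fragments of ribosomal RNA, tRNA, snRNA and snoRNA occur in all tissues, and mature tRNAs end in CCA, which is added after transcription. A length below that of a whole miRNA or piRNA therefore says little about the source of a read, which was taken here from exact matches to the transcripts of GENCODE M21.

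The first set of sequences shows what a short miRNA read is. Each mature miRNA of RefSeq (GRCm38.p6, written with U) is followed by its short read as listed in the tables (written with T), with the seed in capitals.
miR-30a-5p: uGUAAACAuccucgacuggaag
miR-30a-5p, 20 nt read: tGTAAACAtcctcgactgga
miR-27b-3p: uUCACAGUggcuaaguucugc
miR-27b-3p, 20 nt read: tTCACAGTggctaagttctg
let-7f-5p: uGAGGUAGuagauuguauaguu
let-7f-5p, 20 nt read: tGAGGTAGtagattgtatag
let-7f-5p, 18 nt read: tGAGGTAGtagattgtat
let-7g-5p: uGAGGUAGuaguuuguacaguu
let-7g-5p, 18 nt read: tGAGGTAGtagtttgtac
miR-871-3p: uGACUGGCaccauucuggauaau
miR-871-3p, 20 nt read: tGACTGGCaccattctggat
miR-127-3p: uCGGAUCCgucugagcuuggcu
miR-127-3p, 20 nt read: tCGGATCCgtctgagcttgg
miR-181a-5p: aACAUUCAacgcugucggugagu
miR-181a-5p, 19 nt read: aACATTCAacgctgtcggt

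Other short reads overlapped each other along a stretch of RNA, and joining members that share 15 or more bases at their ends gave the stretches below. They are shown because most members without a match lie in such stretches. Capitals mark the bases covered by members that match the annotated entry named, and lower case marks bases found only in members that do not match it.
group A, 144 members, no entry: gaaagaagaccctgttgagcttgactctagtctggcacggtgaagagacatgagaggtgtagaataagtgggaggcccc
group C, 118 members, AA474408: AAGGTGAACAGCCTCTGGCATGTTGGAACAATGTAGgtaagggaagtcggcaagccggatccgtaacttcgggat
group I, 71 members, Mir6240: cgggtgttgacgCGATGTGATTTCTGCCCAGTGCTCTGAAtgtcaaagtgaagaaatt
group L, 65 members, Mir6236: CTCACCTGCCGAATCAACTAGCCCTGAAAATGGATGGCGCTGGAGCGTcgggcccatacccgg

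The last set holds single short reads that stood out in abundance, in their end or in their difference between the tables. The lowest ratio shown is that among members of at least 1000 reads, and rarer members had lower ones. The CCA end is in capitals.
unmatched, most reads: ctcgacacaagggtttgt
unmatched, near the top by reads: gcctgtctgagcgtcgct
unmatched, lowest ratio: cgggatgaaccgaacgcc
unmatched, first CCA end: atcccacttctgacaCCA
unmatched, second CCA end: aaccgggcggaaacaCCA
mt-Ts2, chrM:11615-11633, plus strand: gaaagattgcaagaactgc
mt-Tv, chrM:1061-1078, plus strand: cccagaagatttcatgac
mt-Rnr2, chrM:1094-1113, plus strand: actaatcctagccctagccc
Snord118, chr11:69073474-69073491, plus strand: gaaaatgatgattggagc

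The members made up 1696597 reads of the KO-named table, 3.12% of it (3.11 to 3.12), and 3849181 reads of the het-named table, 6.13% of it (6.13 to 6.14). The ratio of reads per 1000000 reads of a table (RPM), KO-named over het-named, was 0.509 (0.508 to 0.510), a log2 of -0.97. The short reads as a whole were therefore about 2 times as frequent in the het-named table. A member had a median of 73 and 212 reads, with ranges of 0 to 219922 and 33 to 238592. At the lower limit of the selection, the 33 sequences with exactly 100 reads had a median log2 ratio of -1.28, and the 41 sequences with 99 reads, just outside it, had -1.50.

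For single members the log2 ratio was taken with 0.5 reads added to each count. Its median over members was -1.43. There were 4208 members (72.1%) at a log2 of -1 or lower, against 11.8% of all sequences of 18 to 32 nt with at least 100 reads and 8.61% of those of 21 to 32 nt. At a log2 of 1 or higher there were 10 members (0.171%), against 0.89% and 0.928%. The median over all sequences of 18 to 32 nt with at least 100 reads was 0.13. The lower level in the KO-named table therefore held for most members, though not for every kind of RNA among them.

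By exact match, 1395 members matched an annotated transcript in sense and 171 in antisense alone, and 4273 (73.2%) matched none. Members matching several gene types were put in the first of a fixed order that began with miRNA. The 382 miRNA members held 41.4% (41.3 to 41.5) and 19.2% (19.2 to 19.3) of the member reads. The unmatched members held 48.9% and 70.0%. Of the rest, 492 members matched coding transcripts, 294 other noncoding transcripts and 145 entries annotated as miRNA that carry a Gm name or are Mir6236 or Mir6240. The rarer classes by exact match were snRNA with 8, rRNA with 12, snoRNA or scaRNA with 14, mitochondrial tRNA with 15, pseudogenes with 15, misc_RNA with 17 members and mitochondrial rRNA with 1. The 12 rRNA members matched 5S or 5.8S entries, and a whole rRNA precursor is not among the transcripts used. The size of this class therefore does not give the amount of ribosomal RNA among the members.

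The table ratio separated these classes. Reads of miRNA members were 702605 and 740293, a log2 of 0.13 with a ratio of 1.10 (1.09 to 1.10), which turned to -0.14 scaled to miRNA reads of 21 to 23 nt. Unmatched members had 829095 and 2693857 reads, a log2 of -1.49 with a ratio of 0.355 (0.354 to 0.356). Of the 382 miRNA members 12 (3.14%) were at -1 or lower, and of the 4273 unmatched members 3460 (81.0%) were. Mitochondrial tRNA stood with the miRNAs at 0.13 (-0.15 on that scale) and none of 15 at -1 or lower, as did snoRNA or scaRNA at 0.09 and 1 of 14. The snoRNA or scaRNA ratio of 1.06 (0.995 to 1.14) had an interval that holds 1. In between were pseudogenes at -0.40, misc_RNA at -0.29, rRNA (5S and 5.8S matches alone) at -0.83 and snRNA at -0.90. Of the pseudogene reads, 36.0% came from 1 member of Gm15280 with 475 and 1109 reads, and the median log2 of that class was -0.13. Coding matches were at -1.25, other noncoding matches at -1.32, antisense matches at -0.89 and the miRNA-annotated entries at -1.41. With reads shared over all gene types a member matches, coding was at -0.86 and other noncoding at -0.70. Members of a class share sources, so these counts describe the 2 libraries and are not counts of independent observations.

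The miRNA members came from 181 hairpin genes, and the 3 with most reads held 57.5% of the class. Mir143, a miRNA of smooth muscle and other mesenchymal cells, had 5 members with 238231 and 259574 reads, 34.5% of the class. Its main member, of 20 nt, had 4044 and 3801 RPM, a ratio of 1.06 (1.06 to 1.07). Mir30a came next with 116076 and 120998 reads in 7 members. Its 20 nt read lies at chr1:23272274-23272293 on the plus strand of GRCm38, within the hairpin, and had 2115 and 1910 RPM, a ratio of 1.11 (1.10 to 1.12). The 20 nt read of Mir27b, at chr13:63300760-63300779 on the plus strand, had 884 and 679 RPM, a ratio of 1.30 (1.29 to 1.32). For these 3 genes the KO-named table was thus slightly above the het-named one per table total. Scaled to miRNA reads of 21 to 23 nt, which lowers every log2 ratio by 0.27, Mir143 and Mir30a fell below 0 and Mir27b stayed above it.

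Other abundant miRNAs spread to both sides. Mirlet7g, with 16505 and 13562 reads, had a log2 of 0.49, and Mir10b with 12835 and 11407 reads had 0.38. Mirlet7f-1 and Mirlet7f-2 cannot be told apart by their short reads and had a log2 of 0.54 with 26332 and 20847 reads together. Mir30d was at 0.03. On the other side were Mir99b at -0.25 with 24114 and 33019 reads, and Mir871, a miRNA of the testis cluster on chromosome X, at -0.38 with 10076 and 15184 reads. No gene among the 10 miRNA genes with most member reads reached a log2 of 1 in size.

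Grouped by seed, the 241 members that begin exactly at a RefSeq mature start carried 102 seeds. GUAAACA, the miR-30 seed, had 6 members of miR-30a-5p, miR-30c-5p and miR-30e-5p with 119949 and 125624 reads and a log2 of 0.14. The abundant 20 nt reads of Mir30d and Mir143 are not among these 241 members, since they were not placed on a RefSeq sequence. GAGGUAG, the let-7 seed, had 25 members of 9 mature miRNAs with 77690 and 67650 reads, a log2 of 0.41, and single members from -0.27 to 0.63. The miR-27 seed UCACAGU had 5 members at 0.35, and the seed AUUUAGA of the Mir465 family had 8 members at 0.39. The seed ACAUUCA of miR-181a and miR-181b was at 0.69. Lower in the KO-named table were GACUGGC of miR-871-3p at -0.45 and CGGAUCC of miR-127-3p at -0.77, the latter from a single member with 6022 and 11865 reads.

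All miRNA members are short by selection, and what the selection left free was where the bases were missing. Of the 382 miRNA members, 284 lacked bases at the 3′ end alone and held 95.4% and 95.3% of the reads of the class. The 5′ end alone was trimmed in 41 members with 1.50% of reads, both ends in 41 with 1.81%, and 15 members with 1.27% reached past the annotated ends. One member, with 570 and 531 reads, was a whole mature miRNA. For 307 members the reference was the RefSeq mature sequence. For the other 75, with 296018 and 336251 reads, no RefSeq sequence was matched. Their reference was the most abundant read of 21 to 23 nt that holds the member, so they could not be found whole or past the ends. These 75 included 21 of the 41 members trimmed at the 5′ end alone, with a log2 of -1.18 and 8 at -1 or lower. The other 20 of the 41, placed on RefSeq, had a log2 of 0.34 and none at -1 or lower. Among the 307 alone, members trimmed at the 3′ end alone held 93.1% and 93.7% of reads. The number of bases lost was bounded by the selected lengths, since a mature miRNA of 22 nt trimmed at the 3′ end alone can lose only 2, 3 or 4. It is therefore given as a description. Of the 239 members of RefSeq miRNAs trimmed at the 3′ end alone, 86 lacked 2 bases, with 59.7% of the reads, as in the 20 nt reads of miR-30a-5p and let-7f-5p above. That miR-30a-5p read alone had 115028 and 119913 of these 452066 reads. A loss of 1 base made up 14.5% of reads, 3 bases 14.1% and 4 bases 10.7%. The median log2 ratio was 0.23 for 1 and for 2 bases, 0.12 for 3 and 0.09 for 4.

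How often a miRNA was found short differed widely between miRNAs. Among 169 mature starts with at least 1000 reads of 18 to 25 nt, the share of reads of 18 to 20 nt ran from 0.0743% for miR-301a-3p to 84.7% for miR-431-5p, with a median of 6.01%. Over both tables together it passed 50% for 6 starts: miR-30a-5p, miR-27a/b-3p (whose short reads share a start), miR-24-3p, miR-1843b-5p, miR-431-5p and miR-339-5p. For miR-30a-5p it was 46.7% (46.6 to 46.9) and 54.9% (54.6 to 55.1). Nearly all of this was 1 length, since 50.4% of its reads were 20 nt and 0.111% were 19 nt long. The let-7 miRNAs differed in their lengths: let-7g-5p had 11.7% of its reads at 18 nt, more than at 19 nt (3.65%) or 20 nt (4.53%), while let-7f-5p had most of its short reads at 20 nt (12.4%). Abundance did not go with a large short share in miR-10b-5p, with 959597 and 888438 reads of 18 to 25 nt and a short share of 0.760% and 0.757%.

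Between the tables the median short share was close, at 5.84% and 6.23%, and it was higher in the het-named table for 123 of the 169 starts. The median log2 ratio was 0.12 for the short and 0.31 for the longer reads (21 to 25 nt) of the same starts. Single miRNAs differed more, and in both directions. For miR-339-5p, a start with fewer reads, the short share was 34.6% (29.6 to 39.9) and 58.1% (54.5 to 61.7). Short reads made up 8.61% (8.40 to 8.82) and 14.3% (14.1 to 14.6) of miR-127-3p, higher in the het-named table. They made up 6.25% (6.12 to 6.38) and 3.51% (3.43 to 3.60) of miR-181a-5p, higher in the KO-named table. The 19 nt read of miR-181a-5p, with 4838 and 2909 reads, had the highest log2 ratio, 0.94, of the 1017 members with at least 1000 reads.

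Most of the miRNA members at -1 or lower were matches of another kind. Of these 12 members, 8 belonged to Mir3470a, Mir3470b and Mir5098 and had 965 to 1338 places among annotated transcripts, so that their source cannot be told. The other 4 were reads of Mir339 (117 and 435 reads), Mir6538 (44 and 178), Mir328 (55 and 132) and Mir125a (44 and 110). At 1 or higher were reads of Mir223 (78 and 36 reads) and Mir142 (83 and 40), miRNAs of blood cells, of Mir125b (85 and 47) and of Mir878 (81 and 46). The other 6 members at 1 or higher were unmatched, and 2 of these matched a miRNA once their last 1 or 2 bases were left off.

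The tissue named in the labels was checked on fixed marker lists. Of 15 germ cell miRNA genes 13 had members, 46 in number, with 721 and 678 RPM, a log2 of 0.09. The 3 genes listed for Sertoli and other somatic testis cells had 19 members and a log2 of 0.10, with 4659 and 4356 RPM, nearly all of it Mir143. Of 4 blood genes only Mir142 and Mir223 had members, at 16.8 and 11.5 RPM. Mir451a and Mir144, which mark red blood cells, had none, and neither did Mir122 of liver, Mir1a-1 and Mir133a-1 of muscle or Mir124a-1 of neurons. A gene without members can still have reads, since only abundant reads of 18 to 20 nt are members. Mir34b of the germ cell list had no members, yet miR-34b-5p had 6581 and 4546 reads of 18 to 25 nt. Only 7 and 10 of these were 18 to 20 nt long. The lists therefore do not exclude a cell type. Mir145a of smooth muscle had 9.08 and 8.16 RPM, Mir9-1 of neurons 0.901 and 0.956, and the epithelial Mir200b and Mir429 together 5.42 and 4.29. A difference in the number of cells of a type and in RNA per cell cannot be told apart in such bulk RNA.

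First bases followed the classes. U was the first base in 84.3% of miRNA member reads, in 87.1% of those of members trimmed at the 3′ end alone, and in 21.2% of the reads of all other members. Over all members it was 37.7%, with 48.6% and 32.8% in the separate tables. For reads of 24 to 32 nt, the length of piRNAs, it was 76.5% among sequences with at least 100 reads. The other members began with C in 31.3%, A in 26.7% and G in 20.8% of reads. Among unmatched members U made up 23.5% and 20.8% of reads, and among mitochondrial tRNA members no read began with U. As distinct sequences, 52.9% of the miRNA members and 25.3% of the unmatched members began with U.

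The coding and noncoding matches are given apart for entries picked from earlier results of these data and for the remaining members. Lars2, which encodes the mitochondrial leucyl-tRNA synthetase (ENSMUSG00000035202.8, chr9:123366927-123462666, plus strand), had 297 of the 492 coding members and 74.4% of their reads. These were 38417 and 133680, a log2 of -1.59, with 274 members at -1 or lower. The other 195 coding members had 23330 and 35908 reads and a median log2 of -0.29, with 25 at -1 or lower. AA474408, Gm15564 and Gm42418 held 220 of the 294 other noncoding members with a median of -1.53, and the remaining 74 had -0.14. Members that also match a class earlier in the fixed order, such as coding, are not counted here. AA474408 matched 139 members in sense, of which 38 are in this class, and Gm15564 matched 41, of which 13 are. The counts of Lars2 and of these entries are therefore not counts of separate sources. In the antisense class, 93 members matched antisense to CT010467.1, annotated as rRNA on the minus strand at chr17:39846353-39848827, with a median of -1.64. The remaining 78 had -0.34. Antisense here is relative to the annotated strand of the entry, and whether such reads are antisense to ribosomal RNA itself was not tested. Gm42418 and AY036118 lie within the CT010467.1 interval on opposite strands, so 1 member can match Gm42418 in sense and the other entries in antisense. These entries are listed here as ribosomal-type from earlier results of these data, and in each of the 3 classes the remaining members had a median nearer to 0. Since the entries were picked with those results known, this gap is a description and does not show separate kinds of source.

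The entries annotated as miRNA under Gm names, with Mir6236 and Mir6240, also had low ratios. Mir6236 (chr9:110281287-110281409, plus strand) had 47 members with 7399 and 22496 reads, a log2 of -1.40, and 45 of them were at -1 or lower. Mir6240 (chr5:114851948-114852064, plus strand) had 24 members with 3872 and 14261 reads, a log2 of -1.67. The 74 members of the Gm-named entries had a median of -1.38. U began 14.7% of reads in this class, against 84.3% in the miRNA class. Its members overlapped along the entry: the 47 members of Mir6236 covered 48 adjoining bases of the group L stretch above, and the stretch ran on for 15 bases that did not match.

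Mitochondrial fragments were few, and those of 1 tRNA overlapped with varying starts and ends. The mt-Ts2 gene for a serine tRNA (chrM:11613-11671, plus strand) had 10 members with 12395 and 13093 reads, a log2 of 0.13. Its main member, of 19 nt, had 121 and 102 RPM, a ratio of 1.19 (1.15 to 1.23). Another of 19 nt, which starts at the first base of the gene, had 37.5 and 44.1 RPM, a ratio of 0.850 (0.802 to 0.900), and the intervals of these reads of 1 tRNA did not overlap. The valine tRNA gene mt-Tv had 3 members with 3549 and 3756 reads. The single mt-Rnr2 member starts at the first base of the mitochondrial large rRNA and had 1499 and 1746 reads, a ratio of 0.991 (0.924 to 1.06), an interval that holds 1. Of 37 mitochondrial genes 6 had members, 17 in all, none at -1 or lower.

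Small nuclear and nucleolar RNA gave few members. Snord118, the U8 small nucleolar RNA, had 3 members with 736 and 535 reads, a log2 of 0.67. Its 18 nt read had 6.16 and 3.84 RPM, a ratio of 1.60 (1.36 to 1.90). The spliceosomal list had 8 members over 7 of 10 genes. The 3 members of Rnu1b1 and Rnu1b2, copies of the U1 snRNA, had 171 and 572 reads, a log2 of -1.53. The 3 members of Rnu5g, a U5 snRNA, had 199 and 207 reads and a log2 of 0.15, and the main one had a ratio of 1.19 (0.851 to 1.65), an interval that holds 1. Of 9 Pol III genes, 4 had members: 1 shared by the 7SL genes Rn7s1 and Rn7s2 (32 and 84 reads), 1 of Rn7sk (17 and 211) and 1 of Rmrp (17 and 95). Of 181 5S and 5.8S genes 57 matched 12 members, which had 1706 and 3497 reads, a log2 of -0.83. Among these, 1 member with 50 and 244 reads and a log2 of -2.07 matched the 5.8S entry n-R5-8s1. The others cannot be assigned to single copies.

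The 4273 unmatched members were mostly not scattered sequences. Joined by overlaps of at least 15 bases, the 5839 members fell into 1273 groups, and 779 members stood alone. There were 120 groups of at least 10 members, which held 3744 members: 73.4% of the unmatched and 10.2% of the miRNA members. Of these 120 groups 111 had a log2 ratio of -1 or lower and 4 were above 0. Groups of at least 10 above -1 included those of Mir143, Mir99b, Mir10b and mt-Ts2. The median log2 of a member was -1.59 in groups of at least 10, -1.08 in groups of 2 to 9 and -0.24 for members standing alone. With joins of at least 17 bases, chosen like the grouping itself after seeing the data, 3412 members lay in groups of at least 10.

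The largest groups looked alike. Group A joined 144 unmatched members into 79 bases, with 56 different starts and up to 50 members over 1 base. It had 34564 and 125404 reads, a log2 of -1.65, and 138 of 144 members were at -1 or lower. Group C joined 118 members over 75 bases, of which 33 members matched AA474408 and the other 85 were unmatched continuations. It had 26245 and 93168 reads, a log2 of -1.62. Group E joined 87 members over 71 bases around n-R5-8s1, an annotated 5.8S rRNA copy, of which only 1 member matched that entry and 86 were unmatched. All 87 were at -1 or lower, with 8319 and 34297 reads and a log2 of -1.84. Group I around Mir6240 was at -1.13 and group L around Mir6236 at -1.86. In all, 294 unmatched members with 6.53% of the unmatched reads lay in a group with a ribosomal-type entry. The sources of the others were not analysed here, since nuclear tRNAs and a whole rRNA precursor are not among the transcripts used.

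Single unmatched members showed the size of the difference. The one with most reads, of 18 nt, had 276 and 828 RPM, a ratio of 0.334 (0.328 to 0.340). The second one shown had 54.4 and 425 RPM, a ratio of 0.128 (0.123 to 0.133). The lowest ratio among members of at least 1000 reads was 0.0415 (0.0368 to 0.0468), from 283 KO-named and 7862 het-named reads, a log2 of -4.59. At or under -1 were 791 of the 1017 members of this abundance, and none was at 1 or higher. At the other side, 466 unmatched members had a log2 above -0.5, of which 265 were above 0 and 6 at 1 or higher.

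Some unmatched members ended in CCA, as mature tRNAs do. There were 68 (1.59%), against 2.11% of the matched members, so the 3 letters alone do not set these members apart. In 41 of the 68, few reads ran past the CCA (under 5% of the member's own). These 41 had 20984 and 31190 reads and a median log2 of -0.33, with 12 at -1 or lower and 11 above 0. The other 27 had a median of -1.29, with 17 at -1 or lower. Of the 41, 38 had longer reads with the same end that peaked at 22 nt, and 82.8% of their own reads were 18 nt long. The 2 most abundant, shown above, had 106 and 123 RPM, a ratio of 0.859 (0.830 to 0.889), and 99.2 and 120 RPM, a ratio of 0.825 (0.797 to 0.855). The interval of each stayed below 1, yet well above the ratio of 0.355 of the unmatched members as a whole.

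Other unmatched members were near copies of annotated transcripts or of more abundant reads. There were 68 that matched a transcript once their last base or last 2 bases were left off. Their median log2 was -0.21, with 19 at -1 or lower. Of these 68, 38 then matched a miRNA. These 38 had 5029 and 4877 reads and a median log2 of 0.33, with none at -1 or lower. A further overlapping set of 144 members lay 1 mismatch from a read with at least 20 times their reads. These 144 had a median log2 of 0.03, with 28 at -1 or lower. None of the unmatched members held the first 8 bases of the linker given in the labels, and 3 held an undetermined base.

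Most members were also the start or the end of longer reads. For 4479 members (76.7%) the reads of 21 to 32 nt that begin with the member outnumbered it, and for 4375 (74.9%) those that end with it did. In the miRNA class these numbers were 332 and 80 of 382, with the longer reads most often peaking at 22 nt, as trimming of 3′ ends alone entails. In the unmatched class they were 3440 and 3493 of 4273, about equal for both ends. Among members with at least 100 longer reads of the same start, the median log2 was 0.15 for miRNA members and 0.32 for their longer reads. For all other members it was -1.55 and -1.09, and 85.0% of them were lower than their longer reads. The low KO-named level of these RNAs was therefore present in longer reads of the same start as well, with a median nearer to 0. Of the unmatched members, 2089 begin reads of 28 to 32 nt that outnumber them, and these had a median log2 of -1.57, against -1.49 for the rest.

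Length and base composition moved with the ratio. Among all members except miRNAs the median log2 was -1.80 at 18 nt, -1.41 at 19 nt and -1.32 at 20 nt, while the miRNA members had 0.10, 0.15 and 0.19. Over all sequences with at least 100 reads it was -1.04 at 21 nt, -0.47 at 22 nt and 0.19 at 30 nt. By GC content, members other than miRNAs had a median of -1.14 under 40% GC and -2.09 at 70% or more. The miRNA members had 0.32 under 40% GC and -0.37 at 60 to 70%. At the same GC content of 40 to 50%, 163 miRNA members had a median of 0.21 and 1106 others had -1.14. The part of length and base composition in the difference between the tables was not tested, and with 1 library per table a difference between library preparations and one between animals cannot be told apart.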

How the data were processed

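Per the labels' protocols, testis RNA was extracted with Trizol, small RNA was cut from a denaturing gel and libraries came from the TruSeq Small RNA kit. The deposited values are raw read counts per distinct sequence of 18 to 32 nt. For trimming and filters the sources used here give nothing. Depth was 54384974 and 62773871 reads, and 3 reads, the floor for a count of 0, are 0.0552 and 0.0478 RPM. Reads were not marked with molecular identifiers, so PCR copies are counted and intervals and floors cover counting error only.

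Members were the sequences of 18 to 20 nt with at least 100 summed reads. They and the lists were chosen with earlier results of these data known. Members were matched with 0 mismatches to GENCODE M21 transcripts (GRCm38) on both strands by an exact search, tested on simulated data, and placed on RefSeq mature miRNAs (GRCm38.p6). Members with several matches took the first class in the order miRNA, miRNA-annotated entry, rRNA, Mt_rRNA, Mt_tRNA, snoRNA or scaRNA, snRNA, misc_RNA, protein_coding, pseudogene, other noncoding, antisense alone. Reads matching several genes of a class were divided equally where genes were ranked. Shares carry Clopper-Pearson and ratios conditional binomial intervals at 95%. No test was run. Named were the 5 members with most reads per class, up to 5 extreme ratios among members of at least 1000 reads, and the genes with most member reads (10 for miRNAs, 3 for other classes). CCA ends, overlap groups and members at 1 or higher were chosen after their values were seen. No sequence from chromosome 18 is printed. Alternatives were other read minimums, scalings, class rules and units. Python 3.11.15 with numpy 2.4.6, pandas 2.3.3 and scipy 1.17.1 was used.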

Additional observations from a re-analysis of the deposited data

How the results depend on the processing

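No paired analysis was possible because each table is 1 library. The miRNA share of member reads, 26.0% over both tables, was 29.8% with at least 500 reads per member, 22.9% with reads shared over gene types, 26.2% with 3′ tails left off, 6.54% as distinct sequences and 19.4% without the Mir143 member with most reads, an alternative chosen after seeing the data. The log2 ratio of all member reads, -0.97, was -1.06 scaled to reads of 24 to 32 nt, -1.25 scaled to miRNA reads of 21 to 23 nt and -1.08 without that member. Scaled to all reads of 18 to 20 nt it was -0.036, since members make up most of that scale. The median over members, -1.43, was -1.38 with at least 50 reads, -1.41 with at least 500 and -1.70 on the miRNA scale. The 4208 of 5839 members at -1 or lower became 1476 with at least 500 reads, where fewer members exist, and 4550 of 5839 on the miRNA scale. The share over all sequences was not computed at these 2 settings, so these counts cannot be set against it. The share beginning with U, 37.7%, was 27.2% as distinct sequences, and 21.9%, 25.5% and 53.4% at 18, 19 and 20 nt. The share trimmed at the 3′ end alone, 95.3%, was 74.3% as distinct sequences and 93.4% of reads for members placed on a RefSeq mature sequence.

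The miRNA scale lowers every log2 ratio by 0.27, so 2 classes reversed: miRNA from 0.13 to -0.14 and mitochondrial tRNA from 0.13 to -0.15. On that scale the miRNA-annotated entries were at -1.68, coding matches at -1.52, other noncoding at -1.59, antisense at -1.16 and unmatched members at -1.77. With reads shared over gene types, miRNA was at 0.12, miRNA-annotated entries at -1.52, coding at -0.86 and other noncoding at -0.70, and the cause was not tested. Without the main Mir143 member the miRNA class was at 0.15. With joins of 17 bases, 3412 in place of 3744 members lay in groups of at least 10. Depth limits single members: at the minimum of 100 reads the counts are small, and ratios of such members have wide intervals.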
